A study of Mus musculus with 6 samples.

Results

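The 31 genes described here encode the enzymes and carriers that bring pyruvate into mitochondria, convert it to acetyl-CoA or oxaloacetate, run the tricarboxylic acid (TCA) cycle and exchange its intermediates with aspartate and glutamate. They were chosen by gene symbol, and all 31 were found once each among the 40428 features of the count table. RNA had been sequenced from whole subcutaneous white adipose tissue of 3 ANKO mice and 3 control mice of the C57BL/6J strain, all fed regular chow at room temperature. ANKO mice lack Nampt, the enzyme that makes nicotinamide mononucleotide for NAD salvage, in adipocytes, because floxed Nampt alleles were combined with a Cre recombinase under the adiponectin promoter, which is active in adipocytes, so other cells of the tissue keep the gene. Control mice had the floxed alleles (flox/flox). The sources used here do not give the age of the mice. Because the tissue was not separated into cell types, fewer adipocytes and less RNA per adipocyte cannot be told apart in any value below.

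Pyruvate crosses the inner mitochondrial membrane through a carrier built of MPC1 and MPC2. The pyruvate dehydrogenase complex then converts it to acetyl-CoA while reducing NAD, and kinases switch that complex off by phosphorylation while phosphatases switch it on again. Isocitrate dehydrogenase, 2-oxoglutarate dehydrogenase, malate dehydrogenase and glutamate dehydrogenase also use NAD or a related cofactor, so the pathway is one of the main users of the coenzyme that NAMPT helps to renew. In white fat, pyruvate carboxylase and exported citrate supply carbon for fatty acid synthesis, and oxaloacetate supplies glycerol for triglyceride.

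Few of these genes differed between ANKO and control tissue beyond the spread between mice. Of the 31, 1 was lower by the test over all genes, Aco1, and 0 were higher. Of all 19272 features tested, 1.59% passed, 0.488% higher and 1.1% lower, and the share of the 31 (3.23%) rests on 1 gene. All adjusted p-values are from edgeR's quasi-likelihood test with Benjamini-Hochberg adjustment over all features tested, with a threshold of 0.05, and fold changes are log2 of ANKO over control. At an unadjusted p under 0.05, edgeR found 2 genes higher (Got1 and Got2) and 4 lower (Aco1, Suclg2, Glud1 and Pdpr), against 6.03% higher and 6.9% lower among all features. In either direction these were 6 of the 31 (19.4%), against 12.9% of all features. The ANKO and control values did not overlap for 7 of the 31 genes (22.6%), against 19.4% of all features, which is near the background. These were Got1, Got2 and Pdk4 above (9.19% of all features) and Aco1, Suclg2, Glud1 and Pdpr below (10.2% of all features). The median log2 fold change of the 31 was -0.08, with 13 above and 18 below 0. Over all features the median was 0.0007, with 50.1% above and 49.9% below 0. The median of the 31 was 0.10 when control 3 was left out, so that its sign turned without that mouse. Taken without sign, the median log2 fold change with all mice was 0.24 for the 31 and 0.18 for all features. The 95% interval of the difference lay within 1 log2 unit, or 2-fold, in either direction for 26 of the 31 genes.

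**Figure D1:**
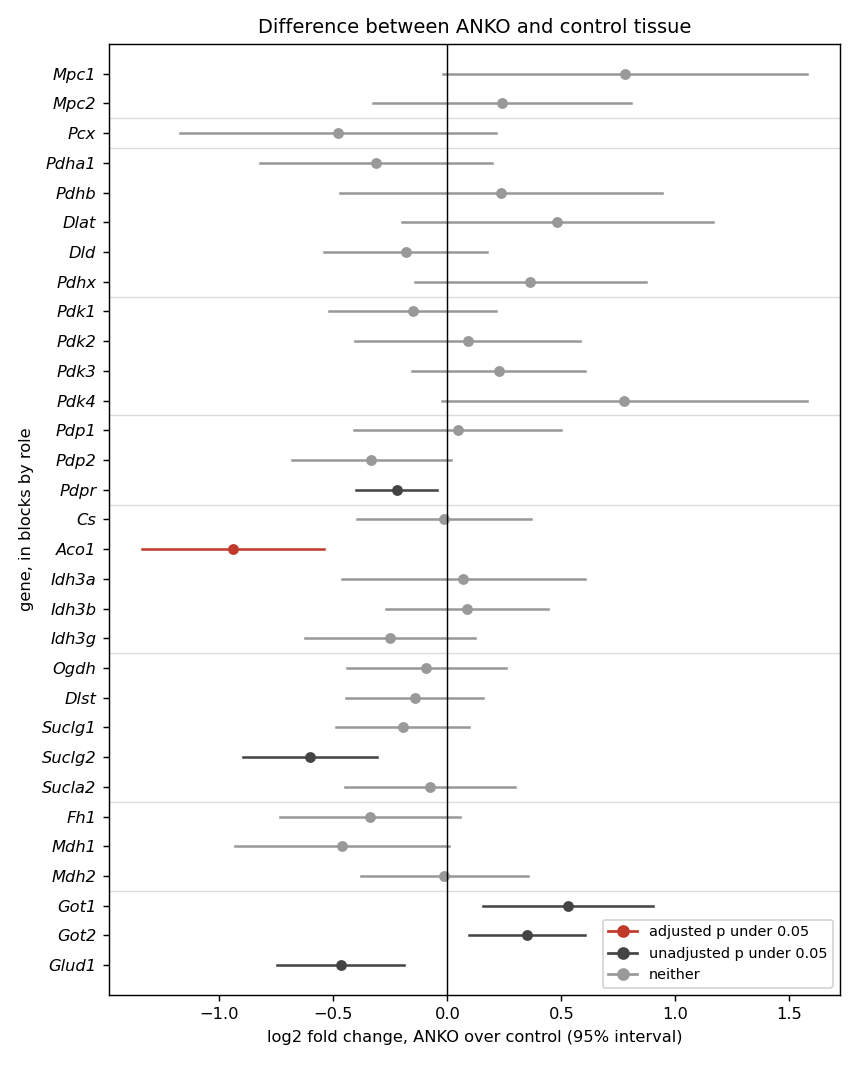
Log2 fold change of each of the 31 genes, ANKO over control, with its 95% interval (horizontal axis), in blocks by role down the page. Aco1 is the only gene past the adjusted threshold, at -0.94, and most intervals include 0.

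The libraries held 20419821 to 23860596 counts in ANKO mice and 19748962 to 22588171 in control mice. Nampt checked the deletion, with 48.6, 50.2 and 47.0 CPM (read counts scaled to library size by the TMM method) in ANKO mice and 83.6, 93.0 and 87.0 CPM in control mice. Its log2 fold change was -0.85 (SE 0.0776, adjusted p = 0.00416). The tissue label was checked against 12 adipocyte markers, which were all detected in every library. Their summed level was 5633 to 8463 CPM in ANKO libraries and 13310 to 20060 CPM in control libraries. A single gene, Cfd, held 1129 to 1176 CPM of the ANKO sums and 5679 to 7787 CPM of the control sums. For 6 of the 12 markers all ANKO values lay below all control values, against 10.2% of all features. Log2 fold changes were negative for 11 and positive for 1, Slc2a4 (0.15). By the adjusted test 4 of the 12 were lower and 0 higher, against 1.1% and 0.488% of all features. Of 12 macrophage markers, 4 were higher and 0 lower, with sums of 784 to 970 CPM in ANKO and 517 to 624 CPM in control libraries. The 20 skeletal muscle markers varied within both groups, at 22250, 3840 and 130.4 CPM in ANKO 1, 2 and 3 and 7344, 1925 and 11660 CPM in control 1, 2 and 3, and 0 of the 18 tested were called. The 8 brown and beige adipocyte markers, of which 1 was higher, summed to only 46.6 to 77.8 CPM in ANKO and 37.1 to 73.1 CPM in control libraries, and Zic1 was at 0 in 1 ANKO and 2 control libraries. The part of adipocyte, macrophage and muscle RNA in the differences below was not tested, except by the fits with a muscle term or without a library that are named.

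**Figure D2:**
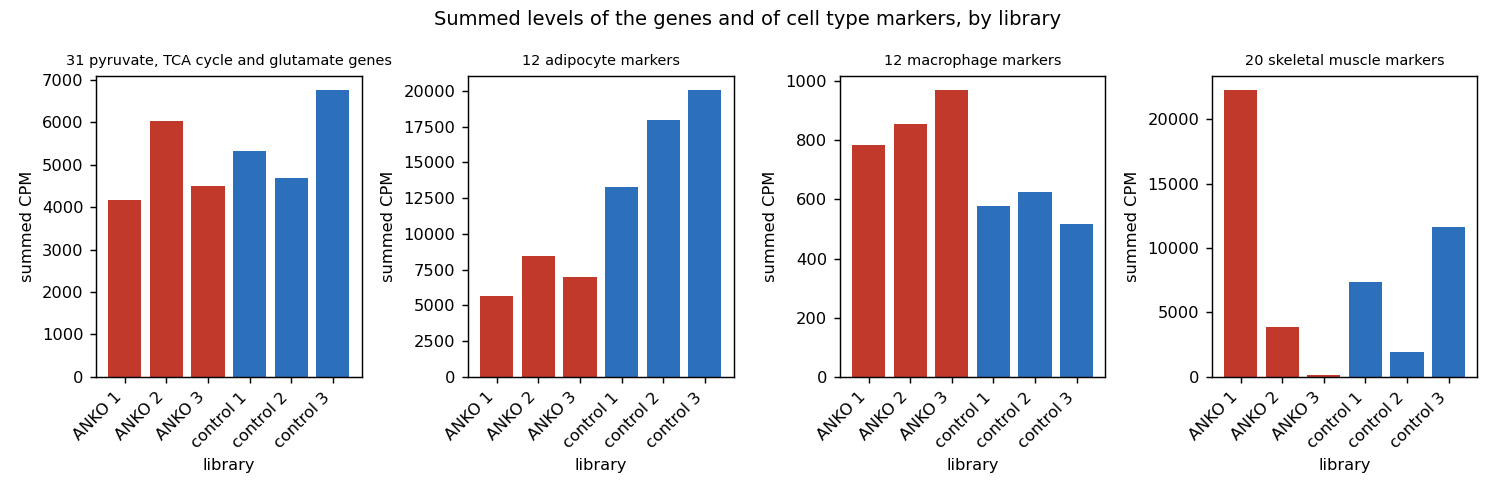
Summed CPM (vertical axes) of the 31 genes and of adipocyte, macrophage and skeletal muscle markers in each library, with ANKO in red and control in blue. ANKO libraries hold 5633 to 8463 CPM of adipocyte markers and control libraries 13310 to 20060 CPM, while the muscle sum is highest in ANKO 1. Cfd alone holds 1129 to 1176 CPM of the ANKO and 5679 to 7787 CPM of the control adipocyte sums.

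The DNA before the start of the 6 genes with an unadjusted p under 0.05 is shown to give the letters that precede their first exons. Promoter windows from RefSeq (GRCm38.p6) were available for 29 of the 31 genes, and each line prints the bases of the 250 before the RefSeq start that also lie before the GENCODE M21 gene start. Capitals mark the 1 motif match found.
Aco1 (chr4:40143015-40143080, plus strand): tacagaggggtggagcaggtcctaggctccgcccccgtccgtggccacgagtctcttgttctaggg
Suclg2 (chr6:95718847-95719096, minus strand): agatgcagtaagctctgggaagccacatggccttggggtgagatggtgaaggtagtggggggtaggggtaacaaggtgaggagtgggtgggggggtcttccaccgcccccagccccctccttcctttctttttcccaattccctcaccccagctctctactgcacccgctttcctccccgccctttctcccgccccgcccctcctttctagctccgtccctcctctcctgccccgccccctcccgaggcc
Glud1 (chr14:34310477-34310726, plus strand): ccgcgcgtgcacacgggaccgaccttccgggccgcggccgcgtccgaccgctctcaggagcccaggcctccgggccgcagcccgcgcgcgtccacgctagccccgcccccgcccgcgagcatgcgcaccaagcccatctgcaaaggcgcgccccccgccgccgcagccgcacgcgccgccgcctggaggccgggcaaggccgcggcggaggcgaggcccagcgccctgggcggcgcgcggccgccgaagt
Pdpr (chr8:111094495-111094629, plus strand): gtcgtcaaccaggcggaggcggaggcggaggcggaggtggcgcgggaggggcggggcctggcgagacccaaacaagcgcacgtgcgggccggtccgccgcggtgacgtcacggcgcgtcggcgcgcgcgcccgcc
Got1 (chr19:43524606-43524855, minus strand): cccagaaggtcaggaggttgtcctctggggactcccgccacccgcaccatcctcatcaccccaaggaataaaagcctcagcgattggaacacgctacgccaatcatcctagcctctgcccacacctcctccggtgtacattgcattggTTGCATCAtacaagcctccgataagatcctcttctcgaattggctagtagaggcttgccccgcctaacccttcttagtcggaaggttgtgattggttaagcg
Got2 (chr8:95888548-95888651, minus strand): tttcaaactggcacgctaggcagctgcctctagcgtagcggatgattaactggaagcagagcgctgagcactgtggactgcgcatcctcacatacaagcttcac
A search for 3 motifs was made on both strands in the 250 bases of every RefSeq window. TTGCNTCA, the core of the amino acid response element bound by ATF4, occurred in 1 of the 29 genes (Got1, where TTGCATCA begins 102 bases before the start) and in 3.61% of all 27025 genes with a window. TNAAGGTCA, the extended half-site of estrogen-related receptors, occurred in 0 of the 29 and in 1.3% of all genes. The NRF1 element, the site of nuclear respiratory factor 1, occurred in 1 of the 29 (Sucla2) and in 4.23% of all genes. None of the 29 genes held more than 1 of the motifs. The 38 windows of these 29 genes had a median GC content of 61.0%, and all 32851 windows one of 52.4%. A match or its absence in these windows is a description of letters and says nothing of binding.

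Aco1 encodes cytosolic aconitase, which interconverts citrate and isocitrate and, without its iron-sulfur cluster, acts as iron regulatory protein 1. It had 100.7, 135 and 108 CPM in ANKO mice and 197, 187 and 273 CPM in control mice. Every ANKO value lay below every control value, and the means were 114 ± 17.9 CPM in ANKO mice and 219 ± 47.0 CPM in control mice (SD, n = 3 each). The gene (chromosome 4, 40143081 to 40198338, plus strand) fell by 0.94 on the log2 scale, to 0.521 of control (SE 0.172, adjusted p = 0.0469). The call lies close to the threshold: it was lost whichever single library was left out (adjusted p = 0.0644 to 0.192, log2 fold change -1.07 to -0.74), and with a muscle term (log2 fold change -0.91, adjusted p = 0.117). The adipocyte marker sum was also lower in all 3 ANKO mice, and its part in the Aco1 difference was not tested. Limma-voom gave an adjusted p = 0.0521 and DESeq2 an adjusted p = 4.74e-05.

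The mitochondrial enzymes that make citrate and turn isocitrate into 2-oxoglutarate did not pass the test. Citrate synthase (Cs), which opens the cycle, averaged 366 ± 65.4 CPM in ANKO mice and 370 ± 63.5 CPM in control mice (SD, n = 3 each), and its difference of -0.02 on the log2 scale had a 95% interval of -0.40 to 0.37. The NAD-linked isocitrate dehydrogenase is built of a catalytic subunit, Idh3a, and of Idh3b and Idh3g. Their log2 fold changes were 0.07, 0.09 and -0.25, each smaller than 2 standard errors (0.223, 0.154 and 0.161). In none of the 4 did the groups separate.

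All 5 genes of the steps from 2-oxoglutarate to succinate had negative log2 fold changes, and 0 passed the test. Without control 3, Ogdh, Dlst and Sucla2 were at 0.10, 0.0001 and 0.15, so the common sign depends on that mouse. Suclg2 (chromosome 6, 95473009 to 95718800, minus strand), the GTP-forming beta subunit of succinyl-CoA ligase, had 31.2, 32.3 and 32.7 CPM in ANKO mice and 40.3, 49.0 and 56.8 CPM in control mice. The ANKO values lay closely together and below all control values, with a log2 fold change of -0.60 (SE 0.128, adjusted p = 0.0706), short of the threshold in the edgeR test and past it in DESeq2 (adjusted p = 0.00683), without a low-count filter (adjusted p = 0.0213) and without control 1 (adjusted p = 0.0325). Sucla2, the ATP-forming beta subunit, had 63.8, 74.1 and 67.5 CPM in ANKO mice and 61.4, 63.0 and 92.2 CPM in control mice, with a log2 fold change of -0.08 (SE 0.161, 95% interval -0.45 to 0.30). Per kilobase of exon, Suclg2 made up 29.6%, 27.3% and 29.5% of the counts of both beta subunits in ANKO mice and 36.1%, 40.2% and 34.7% in control mice. This share, which does not depend on the scaling of the libraries, was lower in all 3 ANKO mice, and the exact two-sided permutation test gave p = 0.1, the smallest that 3 against 3 allows. The shared alpha subunit Suclg1 had a log2 fold change of -0.20 (SE 0.126). The 2-oxoglutarate dehydrogenase subunits Ogdh and Dlst, which make succinyl-CoA, had -0.09 and -0.14 (SE 0.151 and 0.131), so the adjusted p-values of these 3 genes were 0.596 to 0.871.

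The last steps of the cycle run from fumarate to oxaloacetate. Cytosolic malate dehydrogenase (Mdh1), which is also part of the malate-aspartate shuttle that carries reducing equivalents between compartments, had 118, 177 and 126 CPM in ANKO mice and 167, 174 and 241 CPM in control mice. ANKO 2 lay above control 1 and control 2, so the groups overlapped (log2 fold change -0.46, SE 0.199, adjusted p = 0.393). Fumarate hydratase (Fh1) had a log2 fold change of -0.34 (SE 0.170, adjusted p = 0.474). Mitochondrial malate dehydrogenase (Mdh2) averaged 173 ± 25.2 CPM in ANKO mice and 174 ± 33.7 CPM in control mice (SD, n = 3 each), with a difference of -0.01 on the log2 scale (95% interval -0.38 to 0.35).

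The aminotransferases and glutamate dehydrogenase lay on opposite sides of 0. Got1 (chromosome 19, 43499752 to 43524605, minus strand), the cytosolic aspartate aminotransferase, had 30.8, 25.9 and 22.4 CPM in ANKO mice and 18.0, 21.3 and 15.5 CPM in control mice. Got2 (chromosome 8, 95864134 to 95888547, minus strand), the mitochondrial aspartate aminotransferase, had 71.1, 60.0 and 53.8 CPM in ANKO mice and 50.4, 47.2 and 47.7 CPM in control mice. For both genes all 3 ANKO values lay above all 3 control values, with the highest in ANKO 1. The log2 fold changes were 0.53 for Got1 (SE 0.161, adjusted p = 0.197) and 0.35 for Got2 (SE 0.111, adjusted p = 0.214), and neither was called in any alternative fit. With a muscle term they were 0.56 for Got1 (adjusted p = 0.246) and 0.40 for Got2 (adjusted p = 0.135). Glud1 (chromosome 14, 34310727 to 34345265, plus strand), which oxidises glutamate to 2-oxoglutarate in mitochondria, had 145, 146 and 137 CPM in ANKO mice and 163, 223 and 207 CPM in control mice. Its ANKO values lay below all control values (log2 fold change -0.47, SE 0.121, adjusted p = 0.130), and it was called in DESeq2 (adjusted p = 0.0352) and without control 1 (adjusted p = 0.0402). The printed Got1 window is the one that holds the response element letters and the Got2 window holds none of the 3 motifs.

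**Figure D3:**
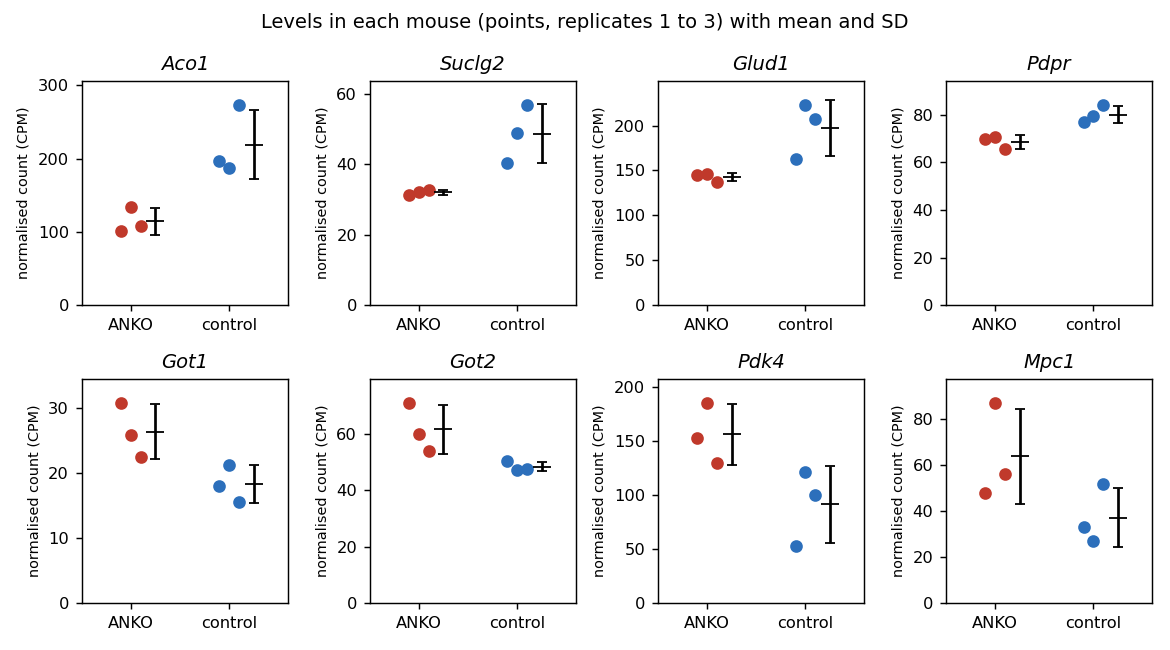
Normalised count (CPM, vertical axes starting at 0) of 8 genes in each mouse, ANKO in red and control in blue, with the mean and SD beside the 3 points. Aco1, Suclg2, Glud1 and Pdpr lie lower in all ANKO mice and Got1, Got2 and Pdk4 higher, while the 2 groups of Mpc1 overlap.

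None of the 4 kinases that inactivate pyruvate dehydrogenase passed the test, and the smallest p was that of Pdk4 (chromosome 6, 5483351 to 5496309, minus strand), the isoform induced by fasting and fatty acids in many tissues. Pdk4 had 153, 185 and 129.8 CPM in ANKO mice and 52.3, 121 and 99.9 CPM in control mice. The groups did not overlap, but control 1 lay far below the other controls and the log2 fold change of 0.78 did not pass (SE 0.324, adjusted p = 0.402, 95% interval -0.02 to 1.58). Pdk1, Pdk2 and Pdk3 had log2 fold changes of -0.15, 0.09 and 0.22 (SE 0.158, 0.208 and 0.164). Per kilobase of exon, Pdk4 made up 45.9%, 48.1% and 46.1% of the counts of the 4 kinases in ANKO mice and 27.3%, 40.3% and 33.4% in control mice. The Pdk4 share was 46.7% ± 1.23 in ANKO mice and 33.7% ± 6.49 in control mice (SD, n = 3 each; exact permutation p = 0.1, the smallest possible). Pdk2 made up 35.8% to 37.2% in ANKO and 42.6% to 44.6% in control mice. Per kilobase, Pdk4 was thus the larger of both in every ANKO mouse and the smaller in every control mouse. The order in control 2 depends on the merged exon lengths used (3.511 kb for Pdk4 and 3.163 kb for Pdk2). In CPM that mouse had 121 for Pdk4 and 116 for Pdk2. Pdk3 was the smallest in every library.

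None of the 3 phosphatase genes whose products reactivate the complex passed the test. Pdpr (chromosome 8, 111094630 to 111137074, plus strand), the regulatory subunit of the phosphatase, had 69.9, 70.7 and 65.4 CPM in ANKO mice and 76.9, 79.4 and 84.1 CPM in control mice, which did not overlap. Its log2 fold change of -0.22 was small but precise (SE 0.0766, adjusted p = 0.255). The catalytic subunit Pdp2 averaged 24.1 ± 3.25 CPM in ANKO mice and 30.4 ± 5.11 CPM in control mice (SD, n = 3 each; log2 fold change -0.33, adjusted p = 0.413), and Pdp1 differed by 0.05 on the log2 scale (SE 0.197). Pdp2 held 65.6% ± 8.52 of the counts per kilobase of Pdp1 and Pdp2 in ANKO mice and 71.0% ± 3.01 in control mice (SD, n = 3 each; exact permutation p = 0.4). For this permutation test a single gene was picked per family, in each case the one with the smallest edgeR p among those compared. The test is therefore no separate support for a difference. The shares of Pdk1, Pdk2 and Pdk3 were not tested. Over the 4 family shares tested, the adjusted p was 0.133 for Pdk4, Suclg2 and Mpc1 and 0.4 for Pdp2. Because the smallest possible p was 0.1, no adjusted p of this test could fall under 0.05.

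**Figure D4:**
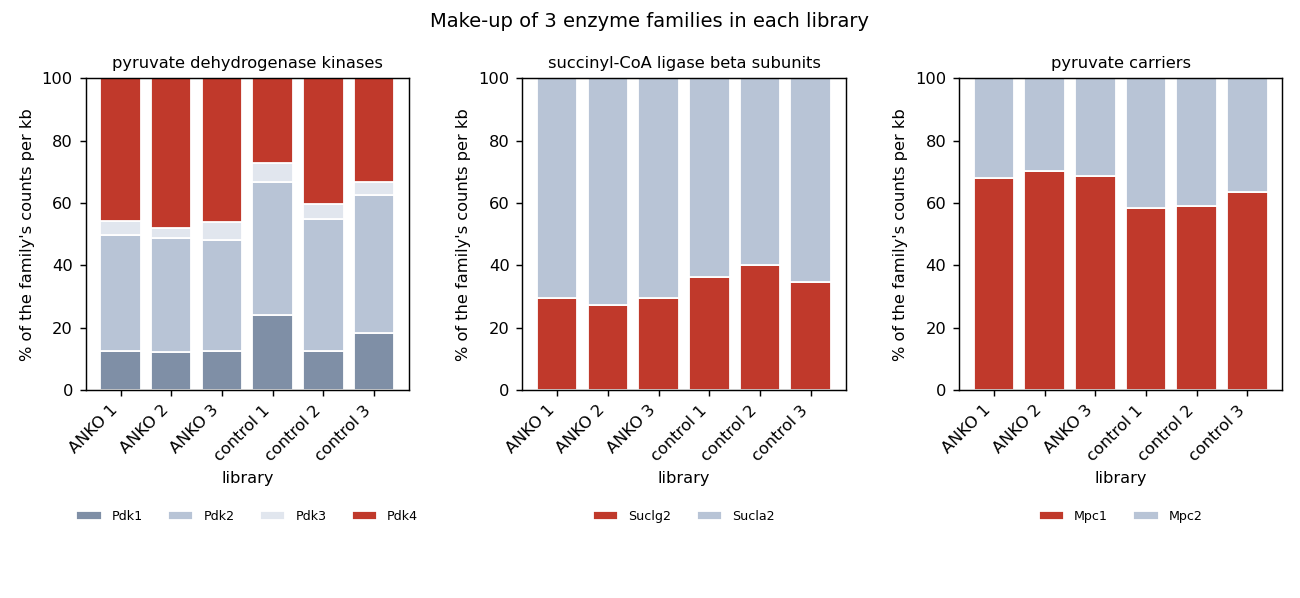
Share of each gene in the counts per kilobase of its enzyme family (vertical axis, percent) in each library. The red parts are Pdk4, at 45.9% to 48.1% in ANKO and 27.3% to 40.3% in control libraries, Suclg2, at 27.3% to 29.6% in ANKO and 34.7% to 40.2% in control libraries, and Mpc1, at 68.1% to 70.2% in ANKO and 58.4% to 63.4% in control libraries.

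None of the subunits of the pyruvate dehydrogenase complex passed the test. The core acetyltransferase Dlat and the binding protein Pdhx, which anchors the last enzyme of the complex, had positive log2 fold changes of 0.48 and 0.36 (SE 0.281 and 0.215). Pdhx had 35.7, 49.9 and 33.2 CPM in ANKO mice and 30.4, 23.6 and 38.3 CPM in control mice, and these groups overlapped. The first enzyme has an alpha subunit, Pdha1, that carries the phosphorylation sites and a beta subunit, Pdhb. Their log2 fold changes had opposite signs, -0.31 for Pdha1 (SE 0.216) and 0.24 for Pdhb (SE 0.291), and Dld, the dihydrolipoamide dehydrogenase shared with 2-oxoglutarate dehydrogenase, had -0.18 (SE 0.155). Adjusted p-values of the 5 subunits were 0.561 to 0.825. In 16.2% of its exon bases Pdha1 overlaps Map3k15 on the opposite strand, whose own count was 2.23 to 4.29 CPM over the 6 libraries. The sources used here do not give the strand setting of the counting, so reads of the 2 genes cannot be told apart there. Smaller opposite-strand overlaps exist for Got2 (434 exon bases, Gm45760), Pdpr (169, 9430091E24Rik), Mdh1 (52, Wdpcp) and Idh3b (5, Nop56).

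The pyruvate carrier subunits stood at higher mean levels in ANKO mice, without passing the test. Mpc1 (chromosome 17, 8282904 to 8297661, plus strand) had 47.9, 87.0 and 56.0 CPM in ANKO mice and 32.9, 26.8 and 51.5 CPM in control mice. ANKO 1 lay below control 3, so the groups overlapped by those 2 mice (log2 fold change 0.78, SE 0.324, adjusted p = 0.400, 95% interval -0.02 to 1.58). Mpc2 averaged 99.5 ± 27.0 CPM in ANKO mice and 84.3 ± 19.6 CPM in control mice (SD, n = 3 each; log2 fold change 0.24, adjusted p = 0.766). Per kilobase, Mpc1 made up 68.1%, 70.2% and 68.8% of the counts of both subunits in ANKO mice and 58.4%, 59.1% and 63.4% in control mice, with no overlap (exact permutation p = 0.1, the smallest possible). A processed pseudogene, Mpc1-ps, had 19.2, 34.3 and 22.5 CPM in ANKO mice and 12.8, 8.47 and 21.7 CPM in control mice, in the same order as Mpc1 within each group, so reads may be divided between the 2 copies and the Mpc1 level is uncertain. Mpc1 also shares 23.05% of its exon bases with 4930506C21Rik on the opposite strand, which had 1.61 to 3.46 CPM.

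Pyruvate carboxylase (Pcx), which makes oxaloacetate from pyruvate, had by far the highest level of the 31 genes. Per kilobase of exon it reached 261 CPM in ANKO and 365 CPM in control mice, and the next highest were Ogdh in ANKO mice, at 79.9 CPM, and Pdha1 in control mice, at 94.7 CPM. The lowest was Pdp1, at 2.22 CPM in ANKO and 2.15 CPM in control mice. In single mice Pcx had 867, 1727 and 1132 CPM in ANKO and 1845, 1256 and 2097 CPM in controls. The highest value of the ANKO mice exceeded the lowest of the controls, so the groups overlapped (log2 fold change -0.48, SE 0.292, adjusted p = 0.580, 95% interval -1.17 to 0.21).

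Within each group, 1 mouse had the highest value for most of these genes. Of the 31 genes, 26 (83.9%) had their highest ANKO value in ANKO 2, against 36% of all features, and 25 (80.6%) had their highest control value in control 3, against 36.2% of all features. Both mice also had the highest adipocyte marker sum of their group, 8463 CPM in ANKO 2 and 20060 CPM in control 3. The muscle marker sum was highest in ANKO 1 among ANKO mice and in control 3 among control mice. The summed level of the 31 genes was 4178, 6041 and 4491 CPM in ANKO mice and 5325, 4680 and 6762 CPM in control mice, so the groups overlapped. ATP citrate lyase (Acly), which turns exported citrate into acetyl-CoA and was named after its values were seen, had 1634, 3876 and 2108 CPM in ANKO mice and 2153, 453 and 1549 CPM in control mice. Its highest values were those of ANKO 2 and control 1. A fit with ANKO 2 and control 3 both left out was an alternative chosen after seeing the data. It removes the mice with the highest values of most of these same genes, which can narrow their spread. Its p-values are therefore no support for a call. The SE of Aco1 was 0.0968 in this fit and 0.172 with all mice. Aco1 was the 1 gene called (log2 fold change -0.88, adjusted p = 0.0318). At an unadjusted p under 0.05, edgeR found 3 higher and 6 lower genes in it, against 9.52% of features in either direction. Without control 3 alone, 6 genes were higher and 3 lower at that unadjusted threshold, against 10.5% of features in either direction. Without ANKO 2 alone these were 2 and 9, against 11% of features, and without control 1 alone 3 and 7, against 11.4%. With ANKO 2 and control 3 both left out, Mpc1 had a log2 fold change of 0.80 (adjusted p = 0.128), Mdh1 of -0.47 (adjusted p = 0.153) and Dlat of 0.39 (adjusted p = 0.265).

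**Figure D5:**
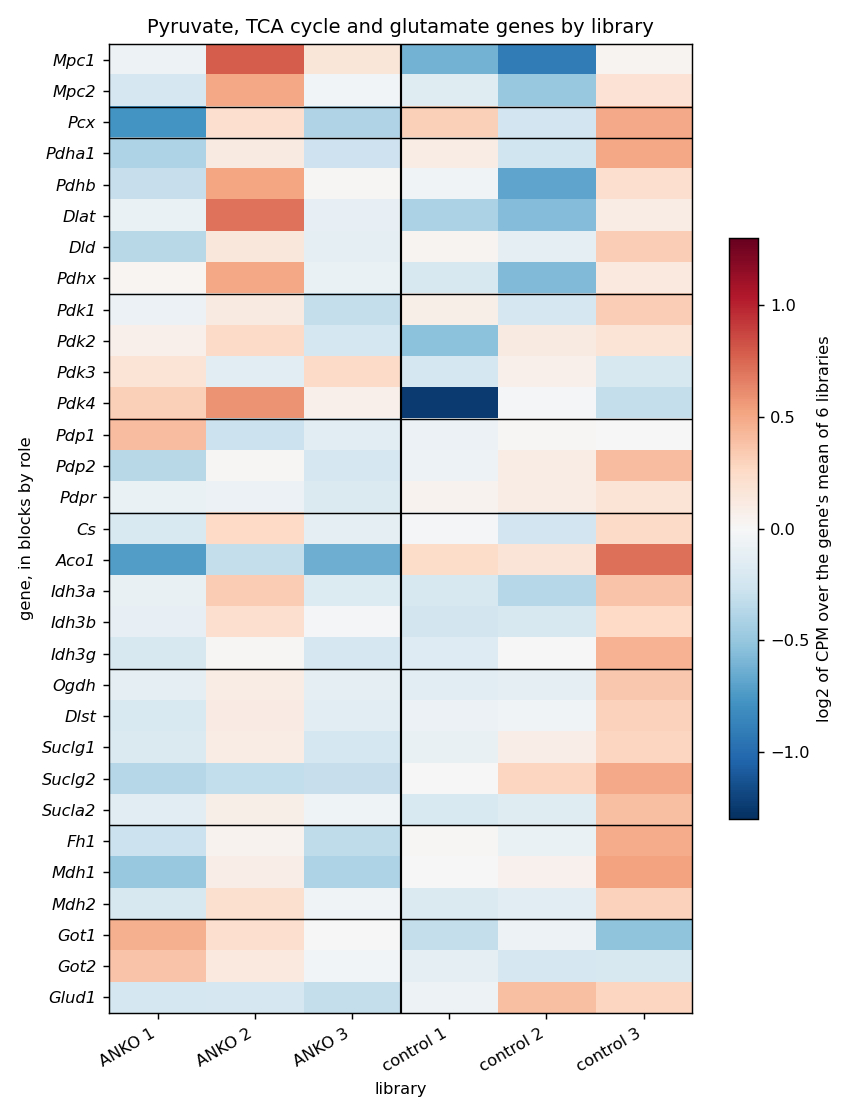
Level of each of the 31 genes (rows, in blocks by role) in each library (columns), as log2 of its CPM over its mean of the 6 libraries. ANKO 2 is the highest ANKO library for 26 genes and control 3 the highest control library for 25.

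Among 34 other genes of these pathways, 3 were lower and 0 were higher by the adjusted test, against 1.1% and 0.488% of all features. Pck1, the cytosolic phosphoenolpyruvate carboxykinase that takes oxaloacetate toward glycerol, had 263, 282 and 372 CPM in ANKO mice and 1114, 2644 and 2348 CPM in control mice (log2 fold change -2.73, SE 0.346, adjusted p = 0.0189). Gpt2, the mitochondrial alanine aminotransferase, which links pyruvate and glutamate, had 75.7, 61.9 and 62.9 CPM in ANKO mice and 140.1, 218 and 275 CPM in control mice (log2 fold change -1.66, SE 0.244, adjusted p = 0.0307). Dhtkd1, a dehydrogenase of lysine breakdown related to Ogdh, had 5.25, 9.49 and 8.13 CPM in ANKO mice and 15.2, 19.3 and 21.4 CPM in control mice (log2 fold change -1.29, SE 0.235, adjusted p = 0.0431). In all 3 genes every ANKO value lay below every control value. The Pck1 call was lost without any 1 library other than control 1 (adjusted p = 0.00215 to 0.121 and log2 fold change -3.03 to -2.50 over the 6 fits) and that of Gpt2 without ANKO 1, ANKO 2, ANKO 3 or control 2 (0.00375 to 0.151, with log2 fold changes of -1.88 to -1.41). The Dhtkd1 call was lost without any 1 library (0.0585 to 0.143, with log2 fold changes of -1.48 to -1.06) and without robust weighting (adjusted p = 0.0567). Without a low-count filter the calls of Pck1 (adjusted p = 0.0692) and Gpt2 (adjusted p = 0.0555) were lost. With a muscle term, the log2 fold change was -1.62 for Gpt2 (adjusted p = 0.077) and -1.37 for Dhtkd1 (adjusted p = 0.0775). At an unadjusted p under 0.05, edgeR found 2 of the 34 higher and 5 lower, against 6.03% and 6.9% of all features. The median log2 fold change of the 34 was 0.01. The succinate dehydrogenase subunits Sdha, Sdhb, Sdhc and Sdhd had log2 fold changes of -0.32, 0.01, 0.02 and 0.24, and 0 of the 4 were called. These genes and the regulators below were taken from lists that also hold genes of earlier results on these data.

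Of 10 transcription factors and coactivators known to act on these genes, 1 was lower and 0 were higher by the adjusted test. Of all features, 1.1% were lower and 0.488% higher. Foxo1, which activates Pdk4 in fasting, had 103, 102 and 103 CPM in ANKO mice and 145, 155 and 143 CPM in control mice (log2 fold change -0.52, SE 0.0732, adjusted p = 0.0152). Its values did not overlap and were nearly equal among the ANKO mice. The Foxo1 call was lost without ANKO 1, ANKO 2, ANKO 3 or control 2 (adjusted p = 0.043 to 0.0845 and log2 fold change -0.54 to -0.49 over the 6 fits) and with a muscle term (log2 fold change -0.53, adjusted p = 0.0508). Ppargc1a, the coactivator of mitochondrial genes, had 7.40, 10.7 and 9.15 CPM in ANKO mice and 10.8, 11.6 and 17.6 CPM in control mice (log2 fold change -0.55, SE 0.227, adjusted p = 0.357), and Esrra, the estrogen-related receptor alpha, had a log2 fold change of 0.33 (adjusted p = 0.496).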

How the data were processed

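RNA of 6 libraries, 3 ANKO and 3 control, was compared. Per the labels, ribosomal RNA had been depleted. The authors deposited raw read counts per gene symbol, without normalisation. The submitters' processing notes name STAR 2.0.4b, Subread, featureCounts 1.45 and GRCm38, and the sources used here do not give the annotation, strand setting or handling of multi-mapping reads. Of 40757 lines, 329 exact repeats were removed. Groups came from the sample titles. No 2 libraries agreed within sampling noise (chi-square per degree of freedom of at least 33.7 over all pairs). Whether the mice were littermates is not given, so litter could not be taken into account. The edgeR p-values rest on the spread between these mice, with each gene's estimate also drawing on all features tested.

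Counts were tested with edgeR 4.0.16 (R 4.3.3) on features kept by filterByExpr (minimum count 10, minimum total count 15), all 31 genes included, with TMM scaling and the robust quasi-likelihood F test. The common biological coefficient of variation was 0.228. Standard errors were taken as the size of the log2 fold change over the root of F, and 95% intervals use the degrees of freedom of that fit. CPM are TMM-scaled, and levels per kilobase use the merged exons of GENCODE M21. Other fits used DESeq2 1.42.0, limma-voom (limma 3.58.1), scaling by RLE or by upper quartiles, no robust weighting, no filter or one of 1 CPM in 3 libraries, a muscle term, a block for replicate number, or fewer libraries. The fit was tested on simulated data.

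The 31 genes and all lists were chosen with earlier results of these data known. Values in every mouse are given for Nampt, for each of the 31 with an unadjusted p under 0.05, and for the gene with the smallest p in each role. Of the other pathway genes and the regulators, those called are named. Cs, Sucla2, Mdh2, Mpc2, Pdp2, Acly, the Sdh genes, Ppargc1a and Esrra were named with values outside this rule.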

Additional observations from a re-analysis of the deposited data

How the results depend on the processing

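The number of the 31 genes called lower (1 as reported) was 3 with DESeq2 (Aco1, Suclg2 and Glud1), 2 without a low-count filter (Aco1 and Suclg2) and 0 with limma-voom, without robust weighting, with a muscle term or with the replicate block, and 0 to 2 when 1 library was left out. None of the 31 was called higher in any of these fits. Of the 31, genes with an unadjusted p under 0.05 numbered 4 higher and 5 lower with DESeq2 and with limma-voom. Without robust weighting these were 4 higher and 4 lower. In either direction, 12.7%, 12.9% and 13% of all features passed with DESeq2, limma-voom and without robust weighting. With 1 library left out, 2 to 6 of the 31 were higher and 3 to 9 lower, where 10.5% to 12.5% of all features passed in either direction. Over all features, 94 were called higher and 212 lower. These became 388 and 498 with DESeq2, 62 higher with limma-voom, 167 higher without a filter, 62 higher with the block, 49 higher and 112 lower with the muscle term, 20 to 107 higher and 55 to 221 lower with 1 library left out, and 20 higher and 76 lower without ANKO 2 and control 3.

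Without ANKO 2 and control 3, Pck1, Gpt2, Dhtkd1 and Foxo1 had adjusted p-values of 0.345, 0.153, 0.14 and 0.0983, and Nampt was called in every fit. Differences close to 0 changed sign. Cs was at 0.022 with the muscle term, and without ANKO 2 and control 3 Ogdh, Sucla2 and Mdh2 were at 0.015, 0.083 and 0.042 (log2). With 1 library or those 2 left out, log2 fold changes ranged from -0.0012 to 0.44 for Mpc2, -0.015 to 0.45 for Pdhb, -0.10 to 0.23 for Pdk2, -0.17 to 0.19 for Pdp1, -0.17 to 0.13 for Cs, -0.10 to 0.33 for Idh3a, -0.013 to 0.28 for Idh3b, -0.18 to 0.10 for Ogdh, -0.24 to 0.0001 for Dlst, -0.18 to 0.15 for Sucla2 and -0.13 to 0.17 for Mdh2. The cause was not tested.

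The replicate numbers gave no clear pairing of the mice. Deviations of same-numbered mice correlated at 0.118, -0.033 and -0.048. ANKO 1 correlated best with control 1, and ANKO 2 and ANKO 3 correlated best with controls of another number. With 3 mice per group this check cannot exclude that mice shared a litter or batch. With the block, the adjusted p was 0.111 for Aco1 and 0.14 for Gpt2. With 3 mice per group the median standard error over all features was 0.186 on the log2 scale. Differences of several standard errors could still miss the adjusted threshold, as for Suclg2 in the edgeR test (log2 fold change -0.60, SE 0.128, adjusted p = 0.0706).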
